A study of Mus musculus with 12 samples.

Results

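The heat shock proteins and J-domain chaperones of mouse fast-twitch muscle were taken as the rows of the expression table whose symbol begins with Dnaj, or with Hsp followed by a, b, d, e or h. Of 17752 genes in the table, 70 matched, and 62 of these averaged 0.5 FPKM or more across the 12 libraries. FPKM is fragments per kilobase of transcript, scaled for library depth. By textbook location, 10 of the 62 members belong to mitochondria, 32 to the cytosol, 13 to the endoplasmic reticulum (ER) and 5 to the nucleus or ribosome. The other 2, Hspb11 and Hspbap1, carry the name without being chaperones of these kinds. Of the 8 rows below 0.5 FPKM, Dnajc22 was the highest at 0.302 FPKM, 2 were Hspd1 pseudogenes, and the lowest member kept was Hspa4l at 0.614 FPKM.

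The EDL (extensor digitorum longus), a fast-twitch muscle of the hind limb, was profiled by RNA-seq in 4 groups of 3 libraries. The mice were male and carried an Nrip1 allele with loxP sites around its coding exon, made in C57BL/6J and crossed to a C57BL/6JN Cre line. Those labelled strNrip1-/- carried Cre recombinase under the muscle creatine kinase promoter, which is active in heart and skeletal muscle, so other cells of the muscle keep the gene. Those labelled WT were littermates without Cre. Nrip1 encodes the nuclear receptor corepressor RIP140. Sedentary mice of both genotypes were compared with mice given voluntary running wheels from 8 weeks of age. The labels do not say that the 3 libraries of a group came from separate animals, so p-values measure the spread between these libraries, which may not be the spread between animals.

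Expression of Nrip1 went against the genotype labels. It was 3.6, 2.55 and 3.84 FPKM in labelled WT sedentary and 15.5, 16.3 and 14.9 FPKM in labelled strNrip1-/- sedentary libraries. After training it was 2.53, 4.76 and 3.56 FPKM in labelled WT and 20.7, 14.9 and 16.6 FPKM in labelled strNrip1-/-. The gene named as deleted was therefore higher in every library labelled as lacking it, and every genotype difference is given in the direction of the labels. Whole-gene FPKM does not show whether the coding exon was present.

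Judged by the step between low FPKM values, the libraries held 20 to 28.95 M fragments (M for mega), and 3 fragments on a gene of 2 kb correspond to 0.0518 to 0.075 FPKM. Markers of fast fibres were abundant in every library, with Myh4 at 6580 to 10800 FPKM. The summed fast-fibre markers were 130000 to 141000 FPKM in labelled WT sedentary and 98700 to 126000 FPKM in labelled strNrip1-/- sedentary libraries. After training they were 129000 to 155000 FPKM and 112000 to 116000 FPKM, in the same order. Summed endothelial markers were 71.1 to 80.7 FPKM in labelled WT and 83.4 to 96.4 FPKM in labelled strNrip1-/- libraries, and all 6 had positive log2 differences in both states. Adipocyte markers were 12.4 to 25.5 FPKM in labelled WT sedentary and 35.1 to 116 FPKM elsewhere. Slow-fibre markers were highest in labelled WT sedentary replicate 2, labelled strNrip1-/- sedentary replicate 1 and labelled WT trained replicate 2, at 423, 438 and 729 FPKM against 120 to 338 FPKM in the other 9. Transcripts of the mitochondrial genome took 51.2% to 52.8% of all FPKM in labelled strNrip1-/- sedentary libraries and 42.2% to 47.3% in the other 3 groups. The part that these differences have in the values below was not tested, and in whole muscle a change in the number of cells of a type and a change in RNA per cell cannot be told apart.

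Chaperones of the HSP70 family bind exposed hydrophobic stretches of unfolded proteins in a cycle driven by ATP. J-domain proteins, named Dnaja, Dnajb and Dnajc, deliver clients to HSP70 and stimulate its ATP hydrolysis, while HSP110 proteins exchange the nucleotide. Each compartment has its own set. Proteins entering mitochondria are pulled through the inner membrane by mortalin (Hspa9) and folded by the barrel-shaped chaperonin of HSP60 (Hspd1) and HSP10 (Hspe1). Small heat shock proteins (Hspb) hold aggregation-prone proteins without using ATP and are abundant in striated muscle, where several bind the Z-disc and its filaments. In the ER, BiP (Hspa5) works with its own J proteins, several of which are targets of the unfolded protein response.

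Short promoter stretches are shown for members that hold the letters through which these families are classically induced. Hspd1, Hspb8 and Dnajc3 among them were called below, and Hspe1, Hspa1a, Hspa1b and Hspa5 are their promoter partner or the classic targets and were not. The heat shock element core was searched as GAANNTTC or TTCNNGAA and the binding motif of estrogen-related receptors (ERR) as AAGGTCA on both strands. The ER stress element was searched as CCAAT and CCACG with a fixed number of any bases between them, also on both strands. Windows ran from 250 bases before to 50 bases after each start (RefSeq, GRCm38.p6). Capitals mark the matched letters.
Hspd1 and Hspe1, shared promoter: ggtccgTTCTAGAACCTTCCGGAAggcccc
Hspd1 and Hspe1, ERR motif: cccgtgggtgaAAGGTCAagtggcgtcatt
Hspa1a, and the same letters in Hspa1b: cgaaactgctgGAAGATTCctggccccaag
Hspb8, just after the start: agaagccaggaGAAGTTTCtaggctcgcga
Hspa5, ER stress element: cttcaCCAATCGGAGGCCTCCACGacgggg
Dnajc3, ER stress element: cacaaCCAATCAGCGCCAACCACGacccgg

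The first pair lies at chr1:55088053-55088082, which holds 3 overlapping cores, and at chr1:55088089-55088118. Both stretches are just before the annotated start of Hspe1 (chr1:55088132-55091307, plus strand). They are inside the annotated span of the divergent gene Hspd1 (chr1:55077835-55088243, minus strand). The Hspd1 window at chr1:55087883-55088182 holds these sites, and its window at chr1:55088194-55088493, at the annotated start, does not. The site of Hspa1a is at chr17:34972242-34972271 and that of Hspb8 at chr5:116422844-116422873, both read on the minus strand. The ER stress elements are at chr2:34772020-34772049 for Hspa5 and chr14:118937822-118937851 for Dnajc3. A heat shock core was present in 12 of 28 cytosolic members with a window, 2 of 7 mitochondrial and 1 of 11 ER members, against 16.97% of 27025 genes. The 2 mitochondrial members are Hspd1 and Hspe1, whose windows overlap and hold the same cores. Hspa9 and Hspa13, which were called below, had no window and were not searched. The ERR motif was found in Hspd1 and Hspe1 alone among 52 members with a window, as 1 site that their windows share, against 5.38% of all genes. The full ER stress element was found in Hspa5 and Dnajc3, against 0.14% of all genes. These matches describe letters and show no binding.

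The levels of the 62 members ran from 0.614 to 724 FPKM. The small heat shock protein Hspb6, known as HSP20, was the highest at 724 FPKM on average over 12 libraries. It was followed by the constitutive cytosolic Hspa8 (HSC70) at 502 FPKM, mortalin Hspa9 at 194, Hspb1 (HSP27) at 181, Hspb8 at 144, Hspe1 at 128, Hspd1 at 119 and the HSC70 partner Dnaja2 at 113 FPKM. Of the summed FPKM of all members, small heat shock proteins made up 37.5%, cytosolic HSP70 proteins 15.8% and the 10 mitochondrial members 19.5%. The small heat shock protein Cryab is not a member by its symbol and is not in these shares, and it averaged 756 FPKM. The classic heat-inducible members were low on average over the 12 libraries, sedentary and trained. Hspa1a was 2.16 FPKM, Hspa1b 1.94 FPKM and the inducible J protein Dnajb1 3.03 FPKM. Hspa1a and Hspa1b are near-identical copies between which reads may have been split.

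**Figure D1:**
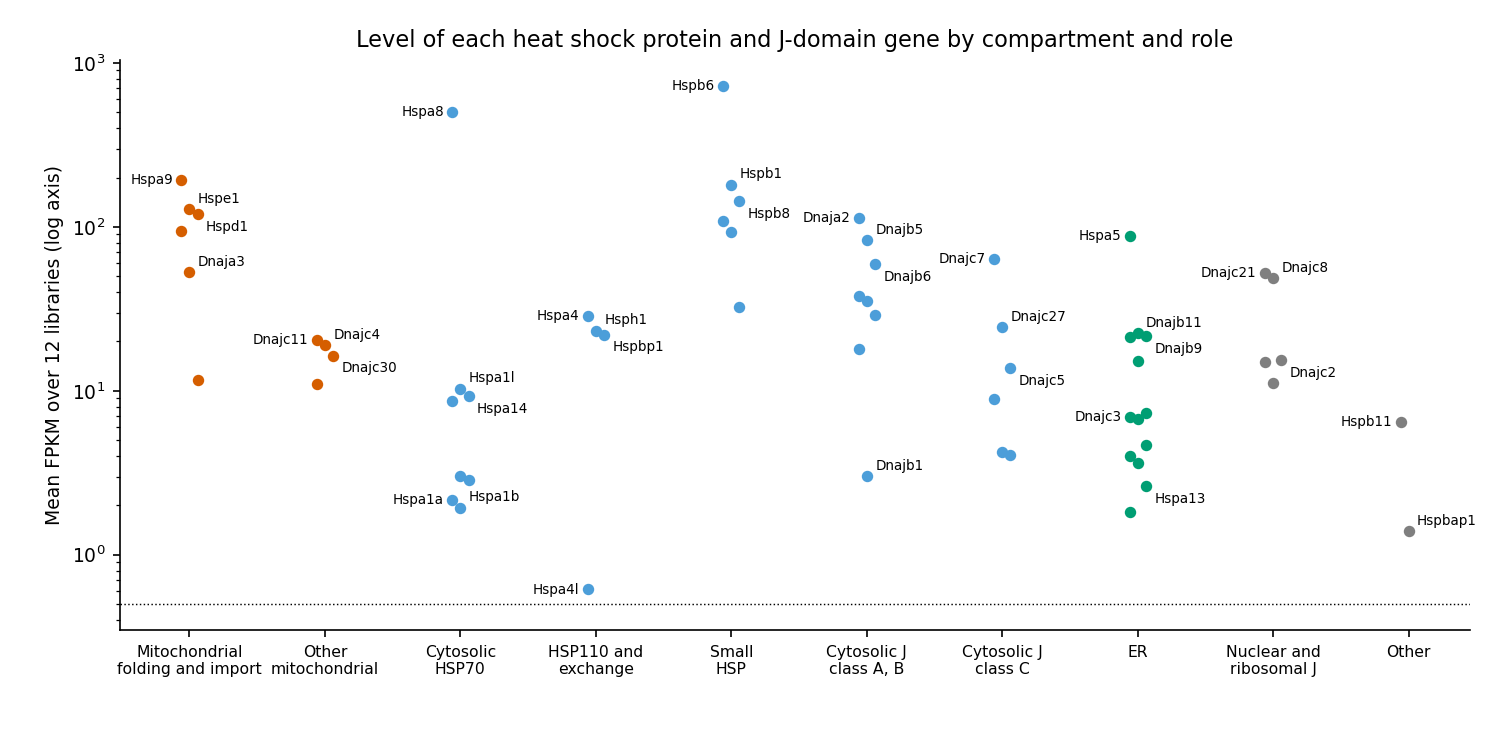
Mean FPKM over 12 libraries of each of the 62 members, on a log axis, grouped by compartment and role. Hspb6 at 724 FPKM and Hspa8 at 502 FPKM are the highest, and Hspa1a and Hspa1b lie near 2 FPKM.

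The summed level of all 62 members was 3210 to 3670 FPKM per library. The 10 mitochondrial members summed to 615 ± 24.5 FPKM (SD, n = 3) in labelled WT sedentary and 730 ± 54.7 in labelled strNrip1-/- sedentary, and in trained libraries to 617 ± 45.6 and 706 ± 14.6 in the same order. The cytosolic members went the other way by less than their spread, with 2410 ± 151 and 2340 ± 160 FPKM in sedentary, and 2450 ± 132 and 2370 ± 71.7 FPKM in trained libraries (SD, n = 3 each). The ER members summed to 212 ± 1.93 and 199 ± 14.8 FPKM in sedentary, and 218 ± 18.5 and 196 ± 6.73 FPKM in trained libraries.

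Each gene was tested with limma on log2(FPKM + 0.5) across all 12744 genes that passed 0.5 FPKM, and was called at a Benjamini-Hochberg adjusted p under 0.05 and a fold change over 1.2, which is 0.26 in log2. Log2 differences are labelled strNrip1-/- minus labelled WT, and this scale understates the differences of low genes. In sedentary libraries 3 of 62 members were called (4.84%), against 3.51% of all genes: Hspd1 and Hspa9 rose and Hspa1l fell. In trained libraries 3 of 62 were called, against 5.98% of all genes, and all of them fell: Hspb8, Hspa13 and Dnajc3. Both shares lie near the background. The family as a whole was therefore called about as often as other genes, and its median log2 difference was 0.00 in sedentary and -0.02 in trained libraries.

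The 6 calls had little room. Each was lost when the 6 libraries of its own comparison were fitted without the other 6, with adjusted p-values from limma of 0.0503 to 0.0754. With every library rescaled to the same total FPKM, Hspd1 had a sedentary difference of 0.21 (limma adjusted p = 0.109) and Hspa9 of 0.25 (limma adjusted p = 0.0543), and Hspa1l kept its call. With the same total over nuclear genes Hspa1l was not called (-0.51, limma adjusted p = 0.0859), and the 3 trained calls were lost under both rescalings, with adjusted p-values from 0.0794 to 0.18.

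Among the mitochondrial members, Hspd1 of the chaperonin and Hspa9 of the import motor were the only ones called, both in sedentary libraries. Hspd1, the HSP60 subunit, was 103, 105 and 107 FPKM in labelled WT sedentary and 133, 140 and 136 FPKM in labelled strNrip1-/- sedentary libraries. The trained values were 113, 117 and 104 FPKM against 125, 123 and 123 FPKM. The groups did not overlap in either state. Its log2 difference was 0.37 ± 0.0577 (SE, limma adjusted p = 0.00601) in sedentary and 0.15 ± 0.0577 (limma adjusted p = 0.153) in trained libraries. The sedentary call was kept whichever single library was left out. It was lost when the 3 libraries highest in slow-fibre markers were left out together, a setting chosen after the data were seen (log2 difference 0.39, limma adjusted p = 0.059).

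Hspa9, the mitochondrial HSP70 that pulls proteins into the matrix, was 159, 168 and 172 FPKM in labelled WT sedentary and 213, 228 and 223 FPKM in labelled strNrip1-/- sedentary libraries. In trained libraries it was 179, 191 and 161 FPKM against 218, 203 and 210 FPKM. Every library labelled strNrip1-/- was again above every labelled WT library of its state. The log2 difference was 0.41 ± 0.0711 (SE, limma adjusted p = 0.0101) in sedentary and 0.25 ± 0.0711 (limma adjusted p = 0.062) in trained libraries. The sedentary call was lost without labelled WT sedentary replicate 1 (0.38, limma adjusted p = 0.0574) and without the 3 libraries highest in slow-fibre markers (0.44, limma adjusted p = 0.059).

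Dnaja3 (chr16:4639989-4707695), the matrix J protein that serves Hspa9, was 45.4, 46.5 and 49.8 FPKM in labelled WT sedentary and 56.2, 56.5 and 56.7 FPKM in labelled strNrip1-/- sedentary libraries. With training these were 51.7, 50.8 and 45.7 FPKM against 59.2, 58.1 and 58.3 FPKM. Its log2 difference was 0.26 ± 0.0634 (SE, limma adjusted p = 0.052) in sedentary and 0.24 ± 0.0634 (limma adjusted p = 0.046, below the fold threshold) in trained libraries, so it was called in neither although no library overlapped.

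Hspe1, the HSP10 lid of the chaperonin, shares the promoter of Hspd1 but its libraries were more scattered. It was 129, 135 and 112 FPKM in labelled WT sedentary against 128, 162 and 127 FPKM, and 99.6, 132 and 107 FPKM in labelled WT trained against 138, 134 and 128 FPKM. The groups overlapped in both states. Its log2 differences were 0.14 (limma adjusted p = 0.666) and 0.25 (limma adjusted p = 0.266). The ratio of Hspd1 to Hspe1 FPKM within a library ranged from 0.778 to 1.13, and the genes share 112 exon bases on opposite strands, which this unstranded library kit cannot separate.

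Dnajc15 and Dnajc19 are J proteins of the import motor at the inner membrane. Dnajc15 was 8.31, 10.5 and 9.58 FPKM in labelled WT sedentary and 13.5, 16 and 12 FPKM in labelled strNrip1-/- sedentary libraries, a log2 difference of 0.52 ± 0.146 (SE, limma adjusted p = 0.0841). In trained libraries it was 10.9, 13 and 10.7 FPKM against 14.3, 10.4 and 10.7 FPKM, a log2 difference of 0.02 (limma adjusted p = 0.952). The sedentary groups were separate and the trained groups were mixed. Dnajc19 was 74.9 to 120 FPKM over all libraries, with differences of 0.00 and 0.04. The other mitochondrial J proteins are Dnajc11, part of the inner membrane organizing system, Dnajc30, linked to complex I repair and ATP synthase, Dnajc28 and Dnajc4. Their log2 differences ran from -0.15 to 0.11 in sedentary and from 0.16 to 0.27 in trained libraries, with none called.

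**Figure D2:**
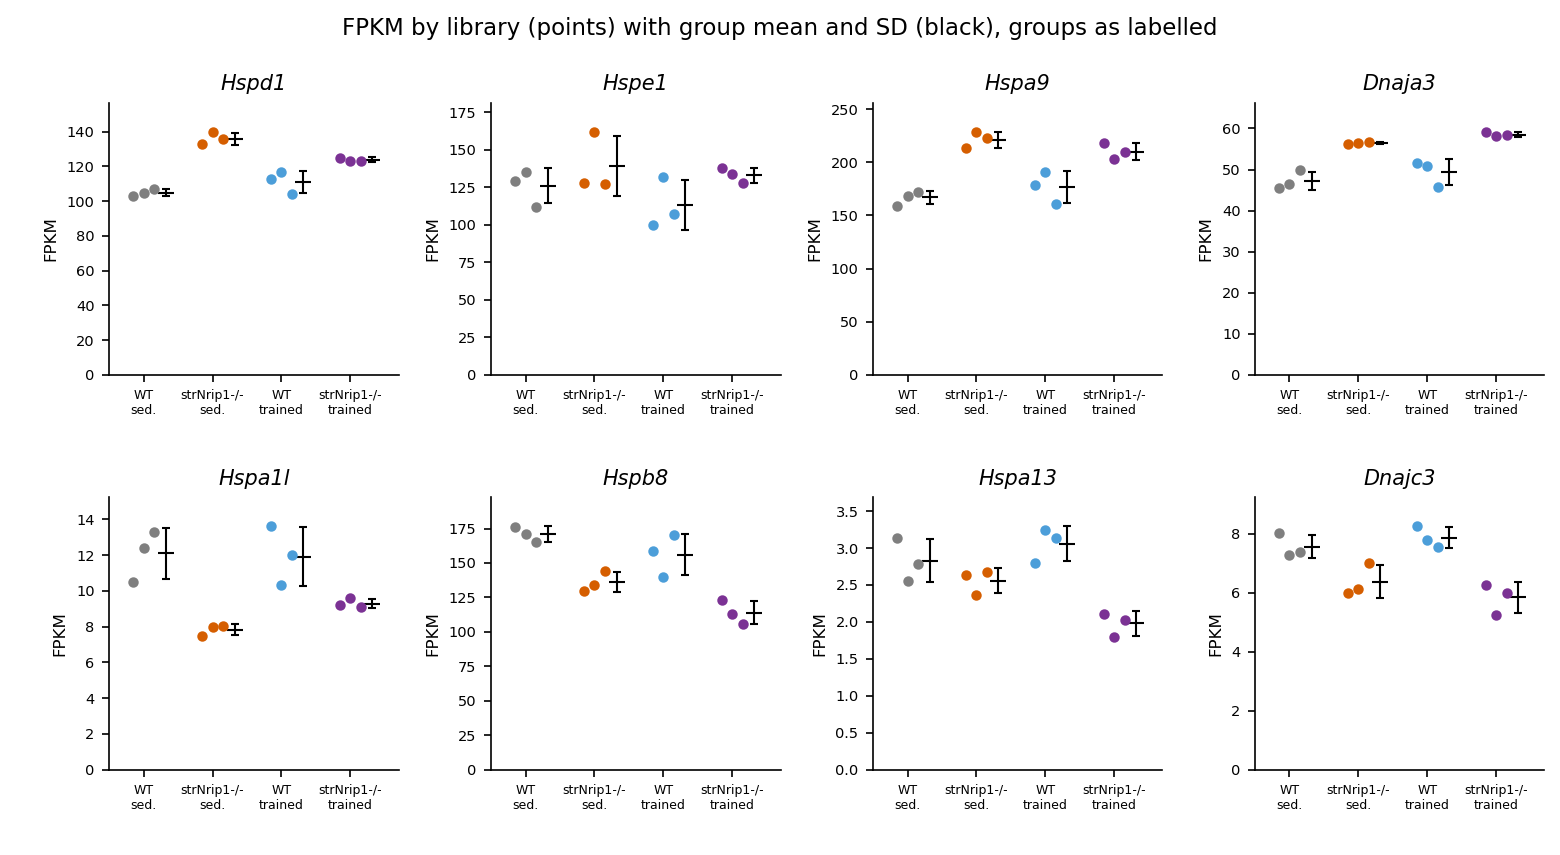
FPKM in each of the 12 libraries for 8 members, with the group mean as a line and linear axes. Hspd1, Hspa9 and Dnaja3 lie higher in both labelled strNrip1-/- groups, Hspa1l and Hspb8 lie lower in both, and Hspe1 overlaps.

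Of the cytosolic HSP70 proteins, the one called was Hspa1l (chr17:34972703-34979285), a constitutive relative of Hspa1a that is best known from testis. It was 10.5, 12.4 and 13.3 FPKM in labelled WT sedentary and 7.49, 7.98 and 8.01 FPKM in labelled strNrip1-/- sedentary libraries. The trained libraries had 13.6, 10.3 and 12 FPKM against 9.18, 9.57 and 9.09 FPKM. Hspa1l was thus lower in every library labelled strNrip1-/- than in any labelled WT library of its state. The log2 difference was -0.59 ± 0.109 (SE, limma adjusted p = 0.0139) in sedentary and -0.34 ± 0.109 (limma adjusted p = 0.0948) in trained libraries. The sedentary call was lost without labelled WT sedentary replicate 2 (-0.57, limma adjusted p = 0.0587) or 3 (-0.52, limma adjusted p = 0.0601), without labelled strNrip1-/- sedentary replicate 1 (-0.56, limma adjusted p = 0.0541), and without the 3 libraries highest in slow-fibre markers (-0.54, limma adjusted p = 0.101). Of its 2472 exon bases, 1778 are shared with the antisense gene Gm10501, and without strand the reads of the pair cannot be told apart.

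The inducible Hspa1a, head to head with Hspa1l in the genome, and its near-identical copy Hspa1b did not separate by genotype label. Hspa1a was 2.05, 2.63 and 2.08 FPKM in labelled WT sedentary against 1.82, 1.86 and 2.47 FPKM, and 2.72, 1.92 and 2.12 FPKM in labelled WT trained against 2.14, 2.07 and 2.0 FPKM. Its log2 differences were -0.11 ± 0.145 (SE) and -0.09 ± 0.145. Hspa1b was 1.5 to 2.80 FPKM over all 12 libraries, with log2 differences of 0.27 ± 0.177 and 0.04 ± 0.177. Both pairs of groups overlapped for both genes.

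HSC70 (Hspa8) was 479, 476 and 468 FPKM in labelled WT sedentary and 504, 574 and 610 FPKM in labelled strNrip1-/- sedentary libraries, a log2 difference of 0.24 ± 0.0921 (SE, limma adjusted p = 0.211). In trained libraries the difference was 0.02 ± 0.0921 and the groups overlapped. Hspa2, a further constitutive HSP70, was 2.92, 2.9 and 2.29 FPKM in labelled WT trained and 3.69, 3.87 and 3.79 FPKM in labelled strNrip1-/- trained libraries, a log2 difference of 0.43 ± 0.118 (limma adjusted p = 0.0573). Hspa12b, a distant relative that is enriched in endothelium, had differences of 0.06 and 0.41 (limma adjusted p = 0.0852 in trained libraries). The trained difference was called without labelled WT trained replicate 2 and without the 3 libraries highest in slow-fibre markers. Summed endothelial markers averaged 74.0 and 89.9 FPKM in sedentary and 77.0 and 94.7 FPKM in trained libraries, labelled WT first. Their part in the values of Hspa12b was not tested. The HSP110 proteins Hsph1, Hspa4 and Hspa4l and the exchange factor Hspbp1 had log2 differences from -0.24 to 0.26 in sedentary and from -0.05 to 0.05 in trained libraries, none called.

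The 6 small heat shock proteins among the members did not move as one. Hspb8, which works with the cochaperone Bag3 to send damaged filament proteins to autophagy, was 176, 171 and 165 FPKM in labelled WT sedentary and 130, 134 and 144 FPKM in labelled strNrip1-/- sedentary libraries. In trained libraries it was 159, 140 and 170 FPKM against 123, 113 and 106 FPKM. The groups did not overlap in either state. The log2 difference was -0.33 ± 0.0833 (SE, limma adjusted p = 0.0587) in sedentary and -0.45 ± 0.0833 (limma adjusted p = 0.0101) in trained libraries. The trained call was lost without labelled strNrip1-/- trained replicate 3 (-0.40, limma adjusted p = 0.0522).

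Hspb7, a heart and muscle small heat shock protein that binds filamin, differed in the other direction without a call. It was 77.6, 83.3 and 70.8 FPKM in labelled WT trained and 112, 130 and 118 FPKM in labelled strNrip1-/- trained libraries, a log2 difference of 0.63 ± 0.226 (SE, limma adjusted p = 0.13). In sedentary libraries it was 47.8, 95.9 and 96.2 FPKM against 110, 95.7 and 81.2 FPKM. The low value was labelled WT sedentary replicate 1. Without that library the trained difference of 0.63 was called (limma adjusted p = 0.012), and the sedentary difference went from 0.32 to -0.02. Hspb6, Hspb1, Hspb2 and Hspb3 had log2 differences from -0.22 to -0.06, none called, and Hspb2 shares 252 exon bases with Cryab on the other strand.

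None of the 14 cytosolic J proteins was called in either state. Their log2 differences ran from -0.21 to 0.27 in sedentary and from -0.53 to 0.16 in trained libraries. The lowest was Dnajc12, which assists the folding of aromatic amino acid hydroxylases, at 9.92, 9.45 and 11.8 FPKM in labelled WT trained against 7.75, 6.44 and 6.90 FPKM (-0.53 ± 0.175 SE, limma adjusted p = 0.105). Dnajb4, an HSC70 partner found in muscle, was 16.7, 19.6 and 19.1 FPKM in labelled WT sedentary against 15.2, 15.7 and 16.5 FPKM, and 21.1, 22.6 and 18.4 FPKM in labelled WT trained against 16.9, 16.7 and 16.5 FPKM. Its groups were separate in both states by small margins, with log2 differences of -0.21 and -0.30 (limma adjusted p = 0.25 and 0.0744). Dnajb6, the Z-disc J protein that works in the Bag3 pathway, was 52.5 to 66.1 FPKM over all libraries, with log2 differences of -0.11 and 0.07.

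In the ER, both calls were decreases in trained libraries. Hspa13 (chr16:75745431-75767104), a microsomal HSP70 relative, was 2.80, 3.24 and 3.14 FPKM in labelled WT trained and 2.11, 1.80 and 2.03 FPKM in labelled strNrip1-/- trained libraries, a log2 difference of -0.52 ± 0.108 (SE, limma adjusted p = 0.0173). In sedentary libraries it was 3.14, 2.56 and 2.79 FPKM against 2.63, 2.36 and 2.68 FPKM (-0.12, limma adjusted p = 0.668). The trained call was lost without labelled WT trained replicate 3 (-0.51, limma adjusted p = 0.0651), labelled strNrip1-/- trained replicate 2 (-0.47, limma adjusted p = 0.0737) or 3 (-0.54, limma adjusted p = 0.0572), and without the 3 libraries highest in slow-fibre markers (-0.49, limma adjusted p = 0.087).

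Dnajc3 (chr14:118937976-118981697), also called P58IPK, is a BiP partner that restrains the stress kinase PERK and whose promoter holds the ER stress element printed above. It was 8.02, 7.29 and 7.38 FPKM in labelled WT sedentary and 5.99, 6.14 and 7.01 FPKM in labelled strNrip1-/- sedentary libraries. After training the values were 8.25, 7.78 and 7.56 FPKM against 6.27, 5.26 and 6.0 FPKM. The groups were separate in both states. The log2 difference was -0.23 ± 0.0921 (SE, limma adjusted p = 0.234) in sedentary and -0.40 ± 0.0921 (limma adjusted p = 0.0278) in trained libraries. The call was lost without labelled WT trained replicate 1 (-0.37, limma adjusted p = 0.0943), 2 (-0.41, limma adjusted p = 0.0547) or 3 (-0.43, limma adjusted p = 0.065), and without labelled strNrip1-/- trained replicate 2 (-0.33, limma adjusted p = 0.108) or 3 (-0.42, limma adjusted p = 0.0785). It was also lost without the 3 libraries highest in slow-fibre markers (-0.41, limma adjusted p = 0.0986).

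BiP itself (Hspa5), whose promoter holds the same element, was 76.1 to 104 FPKM over all libraries, with log2 differences of 0.03 ± 0.122 (SE) and -0.10 ± 0.122. Dnajb9 (ERdj4), the BiP partner induced by the transcription factor Xbp1, was 22.0, 24.3 and 25.8 FPKM in labelled WT sedentary and 18.2, 19.9 and 17.7 FPKM in labelled strNrip1-/- sedentary libraries, a log2 difference of -0.36 ± 0.117 (limma adjusted p = 0.141). In trained libraries its difference was -0.30 (limma adjusted p = 0.166) with overlapping groups. Dnajb11 (ERdj3), which binds clients directly, had differences of -0.23 and -0.23 with separate groups in both states, neither called. Of the 13 ER members, 9 had a log2 difference below 0 in sedentary and 12 in trained libraries.

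The nuclear and ribosomal J proteins held no call. Dnajc21, which takes part in ribosome maturation, had small and tight differences of -0.19 ± 0.0577 (SE, limma adjusted p = 0.118) and -0.17 ± 0.0577 (limma adjusted p = 0.119). The differences of Dnajc2, Dnajc8, Dnajc9 and Dnajc17 ran from -0.23 to 0.17. Hspb11, a component of the transport machinery of cilia, had the highest positive difference of all members in sedentary libraries, 0.58 ± 0.162 (limma adjusted p = 0.0843), and 0.12 in trained libraries.

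The mitochondrial and cytosolic members were then set side by side. The median log2 difference of the 10 mitochondrial members was 0.12 in sedentary and 0.23 in trained libraries, with 8 and 10 of them above 0. The median of the 32 cytosolic members was -0.05 and -0.04, that of the 13 ER members -0.12 and -0.23, and that of all genes 0.00 and 0.01. With libraries rescaled to the same total FPKM the mitochondrial median in sedentary libraries turned to -0.03, while the median of all genes moved to -0.14. The mitochondrial minus cytosolic median was 0.18 in sedentary and 0.26 in trained libraries. Leaving out replicate 2 of the labelled strNrip1-/- sedentary group took the sedentary value to 0.10. With the 6 core members of folding and import alone it was 0.37 in sedentary and 0.24 in trained libraries, so which state had the larger value depended on the members taken. Members are not replicates of a condition, so these medians describe the lists and carry no test.

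**Figure D3:**
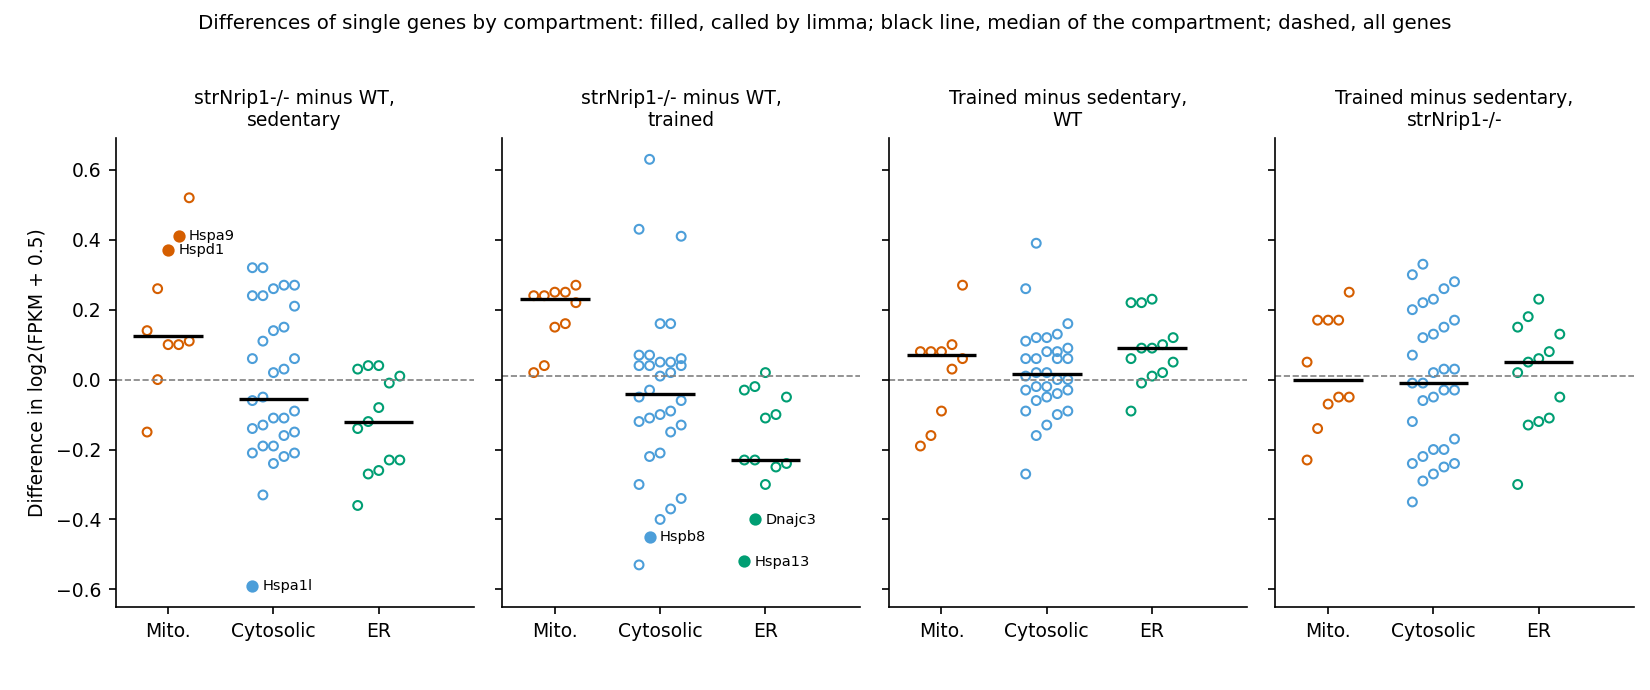
Log2 difference of each mitochondrial, cytosolic and ER member in 4 contrasts, with filled points called by limma, a black line at the median of each group and a dashed line at the median of all genes. Mitochondrial medians lie above the cytosolic ones in both genotype contrasts, and ER medians lie below.

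The same separation was present library by library. Each member was centred on its mean over the 12 libraries, and the cytosolic median was subtracted from the mitochondrial median within each library. The result was -0.12, -0.23 and -0.11 in labelled WT sedentary and 0.17, 0.16 and 0.08 in labelled strNrip1-/- sedentary libraries. It was -0.12, -0.01 and -0.16 in labelled WT trained and 0.19, 0.15 and 0.04 in labelled strNrip1-/- trained libraries. All 6 labelled WT libraries were below 0 and all 6 labelled strNrip1-/- libraries above 0, with a within-group SD of 0.07. Under the 2 rescalings and quantile normalization the mitochondrial minus cytosolic median of the genotype differences was 0.17 to 0.18 in sedentary and 0.26 to 0.27 in trained libraries. A rescaling moves every gene of a library by nearly the same log2 amount, so this value could hardly change under the 2 rescalings. Without the 3 libraries highest in slow-fibre markers the mitochondrial minus cytosolic median was 0.18 and 0.28.

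**Figure D4:**
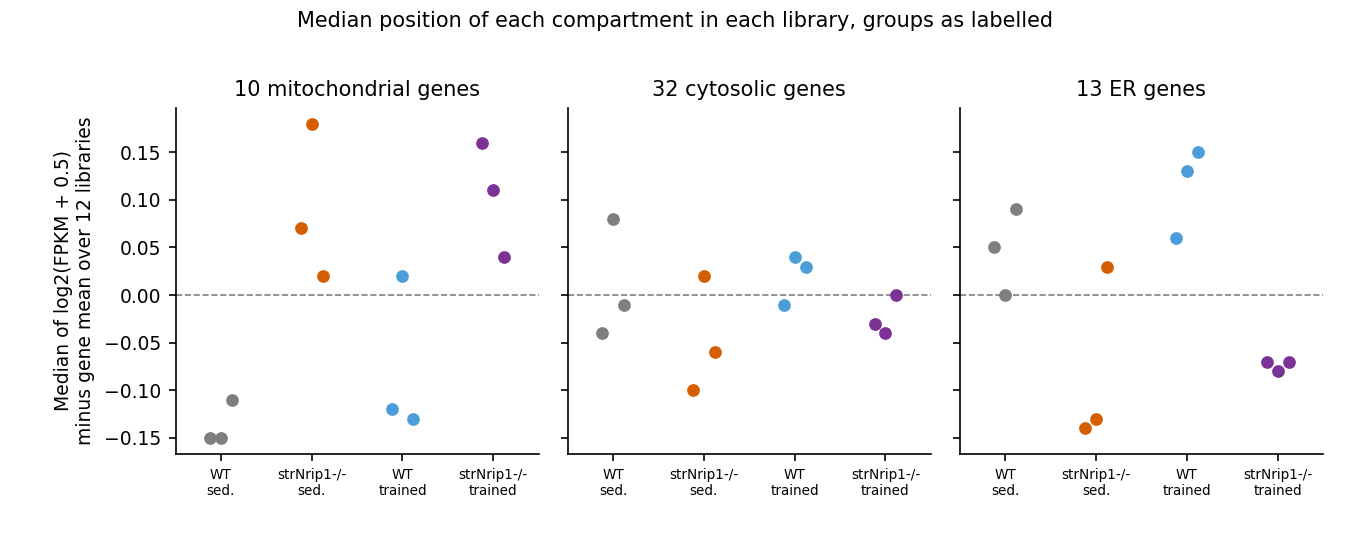
Median over the 10 mitochondrial, 32 cytosolic and 13 ER members of log2(FPKM + 0.5) centred on each gene, in each of the 12 libraries. Mitochondrial medians are higher in the labelled strNrip1-/- libraries of either state, and cytosolic medians stay between -0.10 and 0.08.

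The sedentary and trained genotype comparisons share no library, so members can be followed from one to the other. Library ranges did not overlap, with labelled strNrip1-/- higher in both states, for 3 of 62 members (4.84%) against 4.21% of all genes: Hspd1, Hspa9 and Dnaja3. All 3 act in the mitochondrial matrix, but their share of the members lies near that of all genes. Ranges did not overlap in the lower direction for 7 of 62 members (11.3%) against 4.43% of all genes: Hspb8, Hspa1l, Dnajb4, Dnajb5, Dnajb11, Dnajc3 and Dnajc21. These span the cytosol, the ER and the ribosome.

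An average of the genotype difference over both states, added after the data were seen, uses all 12 libraries for 1 value per gene. It called 7 of 62 members (11.29%) against 8.80% of all genes. Hspa9 rose by 0.33 (limma adjusted p = 0.00175) and Hspa2 by 0.32 (limma adjusted p = 0.0323). The call of Hspa2 was lost in 8 of 12 fits that left out a library (adjusted p up to 0.0777 from limma), without the 3 libraries highest in slow-fibre markers, without the filter on low values and with libraries rescaled to the same total. Hspb8 fell by 0.39, Hspa1l by 0.46, Dnajc3 by 0.32, Hspa13 by 0.32 and Dnajb9 by 0.33 (limma adjusted p = 0.00169, 0.00294, 0.00996, 0.0194 and 0.0262). The call of Dnajb9 was lost in 7 of the 12 fits (adjusted p up to 0.0698 from limma) and that of Hspa13 in 1 (0.0541, without labelled WT sedentary replicate 1), and both, with Dnajc3, were lost without the 3 slow-fibre libraries. Hspa13 and Dnajc3 were also not called with the same total over nuclear genes (limma adjusted p = 0.132 and 0.121). Hspd1 and Dnaja3 passed on the adjusted p alone (0.00203 and 0.00442 from limma), with differences of 0.26 and 0.25 that were under the fold threshold.

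The other genes of mitochondrial protein import, folding and proteolysis were compared with the members, 22 genes in all. Of these 3 were called higher and none lower in sedentary libraries and 5 and none in trained libraries, against 3.51% and 5.98% of all genes called in either direction. A difference above 0 was found for 21 and 19 of them, with medians of 0.18 and 0.30, against 6345 and 6501 of 12744 genes with medians of 0.00 and 0.01. Trap1, the mitochondrial HSP90, was 62.6, 67.6 and 62.7 FPKM in labelled WT sedentary against 85.7, 83.8 and 72.3 FPKM, and 59.8, 65.5 and 61.9 FPKM in labelled WT trained against 76.3, 74.0 and 77.4 FPKM. Its log2 differences were 0.32 and 0.28 (limma adjusted p = 0.0395 and 0.0484). These groups did not overlap, yet both calls lay close to the threshold. The sedentary one was lost in 10 of the 12 fits that left out a library, and the trained one in as many (adjusted p up to 0.154). With libraries rescaled to the same total the sedentary difference was 0.16 (limma adjusted p = 0.206). Both calls were lost with the compared groups only and without the 3 libraries highest in slow-fibre markers (limma adjusted p = 0.06 to 0.165).

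Afg3l2, a protease of the inner membrane, rose by 0.35 in sedentary libraries (limma adjusted p = 0.0093, and 0.0533 without labelled WT sedentary replicate 1). That call was also lost with libraries rescaled to the same total (0.19, limma adjusted p = 0.206). The adjusted p from limma was 0.0716 with the compared groups only and 0.094 without the 3 slow-fibre libraries. Tomm40, the channel of the outer membrane, rose by 0.49 in trained libraries (limma adjusted p = 0.0031), a call kept whichever single library was left out, and had a difference of 0.14 in sedentary libraries. The matrix protease Lonp1 rose by 0.35 in trained libraries (limma adjusted p = 0.0103, and 0.0558 without labelled strNrip1-/- trained replicate 3). Clpb, a disaggregase, rose by 0.33 in trained libraries (limma adjusted p = 0.0325), a call lost in 4 of 12 fits without a library (adjusted p up to 0.117), with the compared groups only (0.0614) and without the 3 slow-fibre libraries (0.0585). Atf5, a transcription factor of the mitochondrial stress response, was called in both states, with 0.54 and 0.48 (limma adjusted p = 0.0414 and 0.0475), but each call was lost in 9 of 12 fits without a library. Its sedentary call was also lost with libraries rescaled to the same total (0.38, limma adjusted p = 0.0519) and with the compared groups only (limma adjusted p = 0.141).

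Of 15 heat shock factors and cochaperones, Bag3 rose in both states while its partner Hspb8 was lower. Bag3 was 46.8, 56.8 and 50.5 FPKM in labelled WT sedentary against 70.3, 66.1 and 70.0 FPKM, and 52.3, 57.6 and 48.3 FPKM in labelled WT trained against 78.1, 82.9 and 74.4 FPKM. Its log2 differences were 0.42 and 0.57 (limma adjusted p = 0.0231 and 0.00394). The trained call was kept whichever single library was left out, and the sedentary call was lost in 4 of 12 such fits, with limma adjusted p = 0.103, 0.0825, 0.0762 and 0.0597 without replicates 1 and 3 of labelled WT and replicates 1 and 3 of labelled strNrip1-/- sedentary. With libraries rescaled to the same total the sedentary difference was 0.27 (limma adjusted p = 0.108). The sedentary call was also lost with the compared groups only and without the 3 slow-fibre libraries (limma adjusted p = 0.0903 and 0.0552). The ratio of Hspb8 to Bag3 FPKM was 3.34 ± 0.378 and 1.98 ± 0.115 in sedentary, and 3.0 ± 0.544 and 1.45 ± 0.106 in trained libraries (SD, n = 3 each), labelled WT first, which restates the values of both genes.

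The heat shock factors themselves did not follow a single direction. Hsf1, the main activator of heat shock genes, had log2 differences of 0.05 and 0.16 and was not called. Hsf2, a second activator, fell by 0.32 and by 0.37 (limma adjusted p = 0.0323 and 0.0121), calls that were lost in 8 and in 1 of 12 fits without a library. With the same total over nuclear genes Hsf2 was called in neither state (limma adjusted p = 0.236 and 0.0702). Hsf4 fell by 0.50 in sedentary libraries (limma adjusted p = 0.0364, lost in 9 of 12 such fits) and had a difference of -0.02 in trained libraries, which turned to 0.04 with libraries rescaled to the same total and to 0.01 with the same nuclear total.

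The 19 ER proteostasis genes held 1 call in sedentary libraries (5.26%, against 3.51% of all genes) and 2 in trained libraries (10.53%, against 5.98%). All were decreases, and the medians were -0.09 and -0.14. Differences above 0 were found for 5 and 3 of the 19 genes, up to 0.31 and 0.34. Xbp1, the transcription factor that induces ER chaperones, was 29.7, 32.8 and 30.1 FPKM in labelled WT sedentary against 20.4, 23.7 and 22.6 FPKM, and 27.9, 29.6 and 27.8 FPKM in labelled WT trained against 21.5, 22.6 and 23.2 FPKM. Its log2 differences were -0.47 and -0.33 (limma adjusted p = 0.00639 and 0.0229). The sedentary call was kept whichever single library was left out but had an adjusted p of 0.0906 from limma without the 3 libraries highest in slow-fibre markers, and the trained call was lost in each fit that left out 1 of the 6 trained libraries (up to 0.0705). Hsp90b1, the ER form of HSP90, fell by 0.36 in trained libraries (limma adjusted p = 0.0208, lost in 4 of 12 fits without a library). The trained calls of Xbp1 and Hsp90b1 were also lost under both rescalings (limma adjusted p = 0.0711 to 0.201). Atf4 and Atf6, transcription factors of other arms of the ER stress response, had differences from -0.07 to 0.02. Of 15 HSP90 genes and cochaperones none was called besides Trap1 and Hsp90b1, and of 14 genes of the cytosolic chaperonin and prefoldin none was called. An unadjusted limma p under 0.05 was found for 2 and 3 of these 14, against 2080 and 2683 of 12744 genes.

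**Figure D5:**
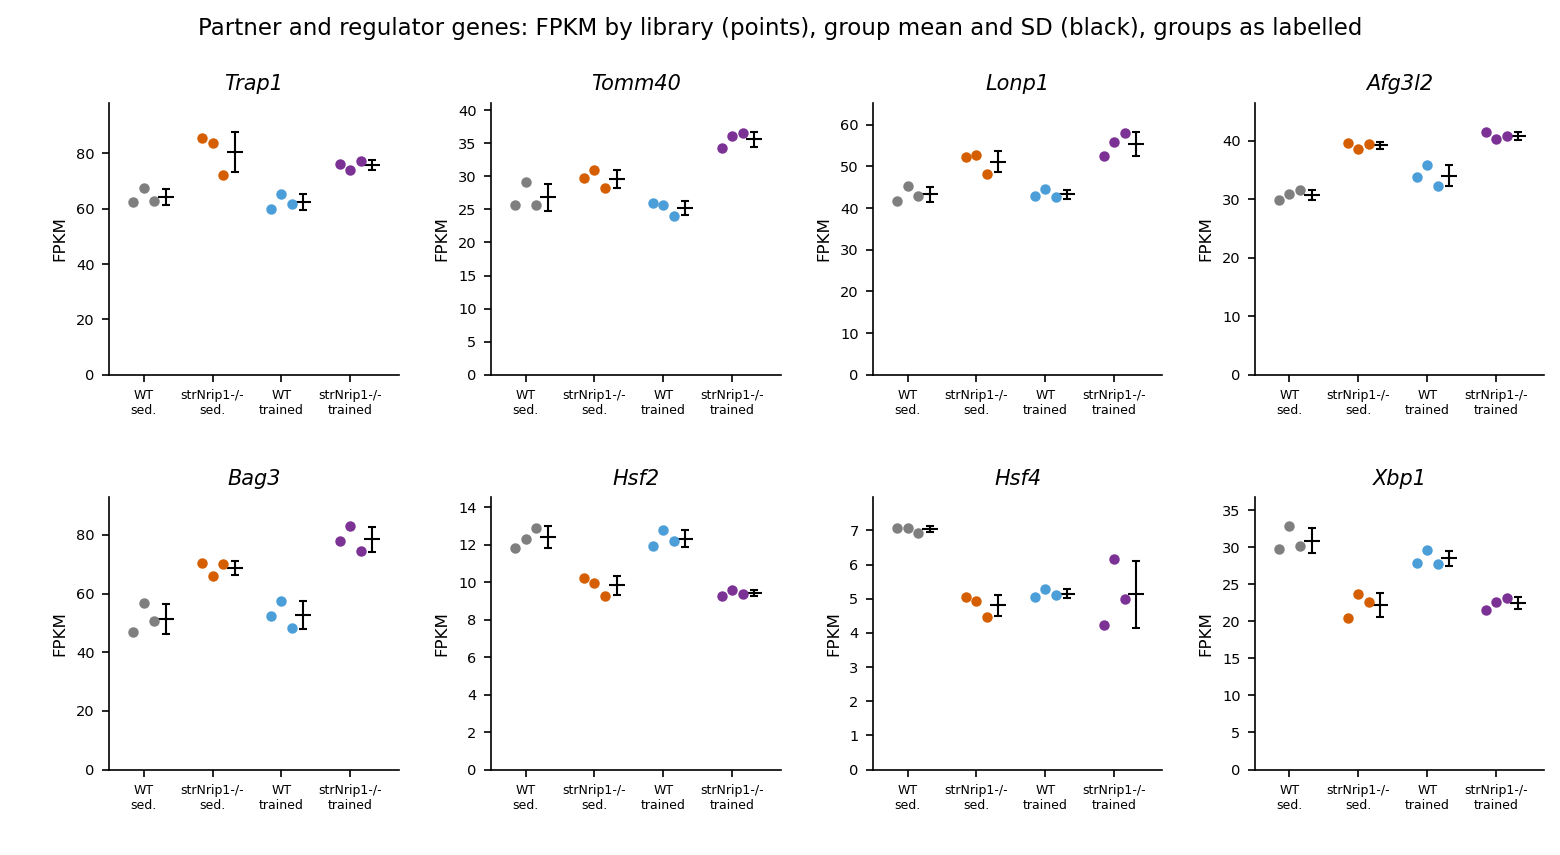
FPKM in each of the 12 libraries for 8 partner and regulator genes, with the group mean as a line. Trap1, Tomm40, Lonp1, Afg3l2 and Bag3 lie higher in labelled strNrip1-/- trained than in labelled WT trained libraries, and Hsf2 and Xbp1 lie lower.

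Training called no member. In labelled WT libraries 0 of 62 members and 0% of all genes were called for trained against sedentary, and 1 member had an unadjusted limma p under 0.05, against 1061 of 12744 genes. In labelled strNrip1-/- libraries it was again 0 of 62 and 0%, with 7 members and 1544 genes at an unadjusted p under 0.05. The largest differences in labelled WT libraries were 0.39 for Hspa4l, an HSP110 protein near the detection filter, 0.27 for Dnajc15, 0.27 for Hspb11, -0.27 for Hspb3 and -0.19 for Dnajc4. In labelled strNrip1-/- libraries they were 0.33 for Hspb7, 0.30 for Hspa12b, -0.35 for Dnaja1 and -0.30 for Hspa13. The mitochondrial minus cytosolic median was 0.06 and 0.01, close to the within-group SD of 0.07 or below it.

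The interaction of genotype and training, which asks whether the genotype difference itself differed between states, also called 0 of 62 members and 0% of all genes. An unadjusted limma p under 0.05 was found for 6 members and for 989 genes. The lowest values were -0.61 for Dnaja1 (limma adjusted p = 0.617), an HSC70 partner, -0.50 for Dnajc15 (limma adjusted p = 0.626), -0.46 for Hspb11 (limma adjusted p = 0.656) and -0.40 for Hspa13 (limma adjusted p = 0.611). The highest were 0.36 for the mitochondrial Dnajc4 and 0.34 for Hspa12b. Of the 62 members 30 were above 0 and 32 below, and of the 10 mitochondrial members 6 and 4. That Hspd1 and Hspa9 were called in sedentary libraries and Hspb8, Hspa13 and Dnajc3 in trained libraries does not show that their genotype differences depended on training.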

How the data were processed

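EDL libraries were made without strand information. Per the study's methods, transcripts were quantified with Salmon 1.10.2 against mm10, summed to genes with tximport and tested with DESeq2 1.44.0. The deposited values used here are FPKM per gene and library, scaled for length and depth by the authors. The table also holds 8 columns of the authors' own log2 fold changes and adjusted p-values, which were not used, and 0 further columns of per-sample values. The annotation release and the function that gave FPKM are not given in the sources used here.

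Groups and replicate numbers came from the labels. FPKM is not a count, so log2(FPKM + 0.5) was fitted with limma 3.58.1 (lmFit, contrasts.fit, eBayes with trend, R 4.3.3) on the 12744 of 17752 genes with a mean of 0.5 FPKM or more, with 4 group means over all 12 libraries. Tests were two-sided and adjusted by Benjamini-Hochberg over all genes. Calls needed an adjusted p under 0.05 and a fold over 1.2, and the interaction the adjusted p alone. The fit was tested on simulated data.

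Identifiers matched GENCODE M21 on GRCm38 for 17745 genes. Depth was estimated from 1619 genes with a single transcript over 1500 nt, where at least 99.0% of low values lay within 0.15 of whole fragments, against 30% by chance. A 2 kb gene at 0.5 FPKM rests on 20 to 29.0 fragments, and these limits cover counting error only. Replicates of a group shared no identical values and their log2 values differed by 0.372 to 0.484 (root mean square).

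The members, the gene lists and the rule for named genes were chosen with earlier results of these data known. The rule names every member called in any contrast, the 10 mitochondrial members, the 8 with the highest mean, Hspa1a, Hspa1b, Dnajb1, Hsph1 and Hspa5, the 2 highest and 2 lowest differences of each contrast, and every listed partner gene called. Other members named for their role, and Dnajb4, Dnajb11, Dnajc21, Hspa12b and Dnajb6, were chosen after their values were seen. Alternatives were the pseudocount, the filter, 2 rescalings, quantile normalization, fits of the compared groups only, a replicate block, each library left out, and other list borders. Leaving out the 3 libraries highest in slow-fibre markers and averaging the genotype difference over both states were added after the data were seen.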

Additional observations from a re-analysis of the deposited data

How the results depend on the processing

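Members called in sedentary libraries numbered 3, against 8 with libraries rescaled to the same total FPKM (all lower, while the median of all genes moved to -0.14), 0 with the compared groups only, 0 without the 3 libraries highest in slow-fibre markers, and 2 to 4 with each library left out. In trained libraries they numbered 3, against 1 with the same nuclear total, 1 with the compared groups only, and 0 to 5 with each library left out (0 without labelled strNrip1-/- trained replicate 3, 1 without replicate 2 and 5 without labelled WT trained replicate 2). The single calls were not among those 3. They were Hspe1 with the same nuclear total (0.29, limma adjusted p = 0.0497) and Hspb7 with the compared groups only (0.63, limma adjusted p = 0.0174), both higher. With the same total FPKM, Dnajc30 and Hspa9 were called higher (0.34 and 0.32, limma adjusted p = 0.0473 and 0.02). Training in labelled strNrip1-/- libraries called 3 members (Dnajb2, Dnajc30 and Hspb6) with the same total, where the median of all genes moved to 0.16. The averaged genotype difference called 7, against 5 to 9 with each library left out. The mitochondrial minus cytosolic median, 0.18 in sedentary and 0.26 in trained libraries, was 0.37 and 0.24 for the core members. With each library left out it was 0.10 (without labelled strNrip1-/- sedentary replicate 2) to 0.22 in sedentary and 0.19 to 0.28 in trained libraries. The cause of these shifts was not tested.

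Differences that changed sign were all uncalled. With the same total, those in sedentary libraries became -0.01 for Tomm40, -0.03 for Clpb, -0.02 for Hspe1 and -0.04 for Dnajc30. In trained libraries Hsf4 went to 0.04 with the same total, to 0.01 with the same nuclear total and to between -0.15 and 0.10 with a library left out, and Dnajc15 to 0.00 with quantile normalization and to between -0.12 and 0.11 with a library left out. In sedentary libraries Hspb7 ran from -0.02 to 0.49 and Dnajc12 from -0.39 to 0.01 with a library left out.

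Over all genes, 447 calls in sedentary libraries became 166 with the compared groups only, 143 without the 3 slow-fibre libraries and 163 to 478 with a library left out. The 762 in trained libraries became 445, 398 and 315 to 874. Higher calls made up 54.8% in sedentary and 53.7% in trained libraries, against 18.6% and 80.9% with the same total and 82.7% and 75.8% with the same nuclear total. Training in labelled strNrip1-/- libraries called 150 genes with the same total, against 0.

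With the replicate number as a block, members called were 3, 3, 0, 0 and 0 in the 4 contrasts and the interaction, and 6 for the averaged difference. Same-numbered libraries deviated together with correlations from -0.105 to 0.241, so the numbers do not pair the libraries, and the block result is given here alone. It took the call from Trap1 in trained libraries, Hsf2 in sedentary libraries and Hspa2 on average (limma adjusted p = 0.0564, 0.0531 and 0.0549). It gave one to Timm44 in both states and to Htra2 in trained libraries (limma adjusted p = 0.0445, 0.0424 and 0.0169), and changed no other call among the named genes. Of the other single-gene values over all alternatives, 1859 kept their direction and side of the threshold, 202 lost a call and 66 gained one. Depth limits the lowest members most, since Hspa4l lies at 0.614 FPKM and a 2 kb gene at 0.5 FPKM rests on 20 to 29.0 fragments.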
